A study of Mus musculus with 24 samples.

Results

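The genes described here are the mouse zinc finger protein genes whose symbol is Zfp followed by a number only. They were taken from the count table by symbol, Zfp42 and Zfp352 were left out by name, and the 300 with the highest mean level over all 24 libraries were kept, of 325 candidates and of 23762 symbols in the table. The level used for the choice was CPM, the count of a gene scaled by the total count of its library so that all libraries sum to the same total. The last gene kept was Zfp558, at a mean of 0.263 CPM, and the first left out was Zfp14, at 0.260 CPM. The family was picked because several of its genes load strongly on the axis of expression that sets the succinylacetone-treated EpiLCs apart, so every contrast that contains those libraries is given here as a description, without a p-value.

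All libraries were made from ES-E14TG2a cells, a mouse embryonic stem cell (mESC) line, with 4 libraries in each of 6 groups. Naive mESCs were held in 2iL, which is N2B27 medium with LIF, 3 μM of the GSK3 inhibitor CHIR99021 and 1 μM of the MEK inhibitor PD0325901. EpiLCs, the epiblast-like cells that naive mESCs turn into, had 48 h with 12 ng/ml FGF2 and 20 ng/ml activin A in place of 2iL. Succinylacetone (SA), an inhibitor of heme synthesis, was given at 0.5 mM for 48 h to naive cells (2iL+SA) or during the transition (EpiLC+SA), and 10 μM hemin was added with it in the groups 2iL+SA+H and EpiLC+SA+H. All groups come from 1 cell line, and no library of hemin without SA was analysed here.

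Most proteins of this family bind DNA through C2H2 zinc fingers, short folds in which paired cysteines and histidines hold a zinc ion and which are repeated in tandem, each finger reading a few bases. Many carry a KRAB box, which recruits Trim28 and, through it, the histone methyltransferase Setdb1 and heterochromatin proteins; in mouse embryonic stem cells such complexes silence retroelements and protect imprinted loci. Genes of the KRAB class lie in clusters of young, similar copies, while members without the box include transcription factors, RNA-binding proteins and ubiquitin or SUMO ligases.

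The promoter windows of 5 members named in the description of SA are printed. They are the 3 marker genes of the family, Zfp787, Zfp768 and Zfp628, whose levels were lower in every EpiLC+SA library than in any EpiLC library, and Zfp28 and Zfp326, whose levels were higher. Each window is the RefSeq sequence (GRCm38.p6) from 250 bases before to 50 bases after the annotated start, in the direction of the gene, and capitals mark matches on either strand to GGGCGG (the SP box, CCGCCC on the other strand) or CCGGAAGT (the ETS site, ACTTCCGG on the other strand).
Zfp787 (chr7:6155916-6156215, minus strand): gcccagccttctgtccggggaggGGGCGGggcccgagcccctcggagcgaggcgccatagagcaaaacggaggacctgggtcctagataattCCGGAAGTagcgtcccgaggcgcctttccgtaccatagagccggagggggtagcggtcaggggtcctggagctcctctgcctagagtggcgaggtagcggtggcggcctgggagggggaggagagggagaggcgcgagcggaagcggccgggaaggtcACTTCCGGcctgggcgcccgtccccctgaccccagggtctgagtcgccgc
Zfp768 (chr7:127345265-127345564, minus strand): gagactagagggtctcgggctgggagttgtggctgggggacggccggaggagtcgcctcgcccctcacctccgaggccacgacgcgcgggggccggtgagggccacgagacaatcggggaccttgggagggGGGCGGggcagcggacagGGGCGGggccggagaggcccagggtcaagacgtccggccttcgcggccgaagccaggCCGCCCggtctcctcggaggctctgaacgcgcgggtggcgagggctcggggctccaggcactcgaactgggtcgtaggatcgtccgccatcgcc
Zfp628 (chr7:4914967-4915266, plus strand): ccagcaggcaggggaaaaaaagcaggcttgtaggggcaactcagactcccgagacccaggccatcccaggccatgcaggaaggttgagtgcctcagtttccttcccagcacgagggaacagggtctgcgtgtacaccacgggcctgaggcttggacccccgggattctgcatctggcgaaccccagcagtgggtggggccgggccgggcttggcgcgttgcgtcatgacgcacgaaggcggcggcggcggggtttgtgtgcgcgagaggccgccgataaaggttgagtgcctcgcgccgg
Zfp28 (chr7:6383068-6383367, plus strand): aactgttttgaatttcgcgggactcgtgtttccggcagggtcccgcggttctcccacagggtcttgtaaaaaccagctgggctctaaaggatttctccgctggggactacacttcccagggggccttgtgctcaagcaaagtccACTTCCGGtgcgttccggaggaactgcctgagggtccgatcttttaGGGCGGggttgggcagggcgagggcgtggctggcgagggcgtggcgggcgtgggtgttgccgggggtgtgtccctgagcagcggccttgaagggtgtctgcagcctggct
Zfp326 (chr5:105876318-105876617, plus strand): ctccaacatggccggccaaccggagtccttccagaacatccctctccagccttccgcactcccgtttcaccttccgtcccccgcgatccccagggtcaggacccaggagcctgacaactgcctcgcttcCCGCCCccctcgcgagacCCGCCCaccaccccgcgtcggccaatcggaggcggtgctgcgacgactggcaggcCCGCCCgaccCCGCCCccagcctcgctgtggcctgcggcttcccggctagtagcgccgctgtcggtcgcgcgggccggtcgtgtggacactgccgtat
In these windows Zfp787 had 1 SP and 2 ETS matches, Zfp768 had 3 SP matches, Zfp628 had none, Zfp28 had 1 of each and Zfp326 had 4 SP matches. Zfp932, also higher in every EpiLC+SA library than in any EpiLC library, has 2 windows that are not printed, and neither held a match. Zfp787 and Zfp28 lie in the same gene cluster and both hold an ETS match, and their levels differed in opposite directions.

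The libraries held between 1857964 and 9069538 counts. The 3 shallowest libraries were 2iL+SA replicate 3 (1857964 counts), EpiLC replicate 3 (2883740) and EpiLC+SA+H replicate 1 (2131987). Several calls of genes named here turn on them, and many of these are given with and without them. The sum of 7 naive marker genes (Klf4, Esrrb and others) was 2895 to 3116 CPM in 2iL and 80.0 to 438 CPM in EpiLC, and the sum of 6 primed markers (Fgf5, Otx2 and others) was 68.7 to 103 CPM in 2iL and 1458 to 2334 CPM in EpiLC, so the groups carried the markers of their labels. In EpiLC+SA the naive sum was 527 to 968 CPM, the primed sum 270 to 814 CPM and the sum of 3 pluripotency genes 287 to 631 CPM, beside 422 to 1089 CPM in EpiLC, so these markers moved with the results on EpiLC+SA given here, and their part in them was not tested. In EpiLC+SA+H the naive sum was 319 to 979 CPM and the primed sum 650 to 1723 CPM. The first range reached above that of EpiLC and the second below it, and their part in the results on EpiLC+SA+H was not tested. Over all libraries the highest sums were 12.3 CPM for mesoderm, 15.5 CPM for fibroblast, 21.3 CPM for primitive endoderm, 25.4 CPM for trophectoderm, 37.0 CPM for 2-cell-like and 73.3 CPM for neuroectoderm markers. The neuroectoderm sum was 6.83 to 14.03 CPM in EpiLC+SA, below the 18.8 to 29.4 CPM of EpiLC and the 22.5 to 35.4 CPM of EpiLC+SA+H, and was 42.9 to 73.3 CPM in 2iL+SA, above the 19.3 to 32.4 CPM of 2iL. The mesoderm sum was 2.80 to 4.84 CPM in 2iL+SA and 9.35 to 12.3 CPM in 2iL. The 2-cell-like sum was 3.57 to 12.0 CPM in 2iL, 9.36 to 23.4 CPM in 2iL+SA and 12.9 to 37.0 CPM in 2iL+SA+H. The range of 2iL+SA overlapped that of 2iL, and the range of 2iL+SA+H did not. These sums moved with the SA comparisons, and their part in the results was not tested. In bulk RNA, fewer cells of a type and less RNA per cell cannot be told apart.

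Levels spanned a wide range. The median of the mean CPM over the 300 members was 7.51, from 0.263 to 552; 127 members were at 10 CPM or more, 32 were below 1 CPM, and 231 had at least 1 count in every library. After a filter on low counts, 291 members were tested among 16067 genes. In a principal component analysis of these genes, the EpiLC+SA libraries lay highest on the second axis. The 3 shallow libraries lay lowest, EpiLC replicate 3 at -104, 2iL+SA replicate 3 at -85.3 and EpiLC+SA+H replicate 1 at -66.6. Of the 291 members, 30 (10.3%) were among the tenth of genes with the largest absolute loadings on that axis. The 6 members of highest mean level were Zfp106, an RNA-binding protein, Zfp292, Zfp207, a microtubule-binding protein of the mitotic spindle, Zfp706, which in mouse cells promotes the exit from self-renewal, Zfp91, a ubiquitin ligase, and Zfp568, a KRAB protein that silences a placental transcript of Igf2. Of these, Zfp568 alone carries a KRAB box. Zfp106 stood at 501 ± 13.4 CPM in 2iL (SD, n = 4) and Zfp568 at 174 ± 1.72 CPM.

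Coding sequences could be read for 297 members, and the other 3 are pseudogenes. A KRAB box pattern was found in 156, and 288 had at least 1 C2H2 finger (C-X2-4-C-X12-H-X3-5-H), with a median of 11 and up to 37 fingers. KRAB members had a median of 12 fingers and a transcript GC content of 42.3%, and the others had 8 fingers and 51.2% GC. Chromosome 7 holds 78 members, chromosome 17 holds 37 and chromosome 13 holds 26, and 134 members lie in 14 clusters of 5 to 20 genes with gaps of at most 1 Mb. The authors discarded reads that map to several loci, so counts of near-identical copies in these clusters may be too low, and Zfp607, a symbol that now stands for more than 1 gene copy, is uncertain.

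The members together took a similar share of all counts in 5 of the 6 groups. Their share was 0.685 ± 0.026% in 2iL, 0.702 ± 0.060% in 2iL+SA, 0.668 ± 0.017% in 2iL+SA+H, 0.697 ± 0.039% in EpiLC and 0.679 ± 0.010% in EpiLC+SA+H (mean ± SD, n = 4). In EpiLC+SA it was 0.531, 0.449, 0.474 and 0.432% in replicates 1 to 4. All 4 values lay below the lowest of the other 20 libraries, which was 0.653%, while 2iL+SA replicate 3, a shallow library, was the highest at 0.792%.

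**Figure D1:**
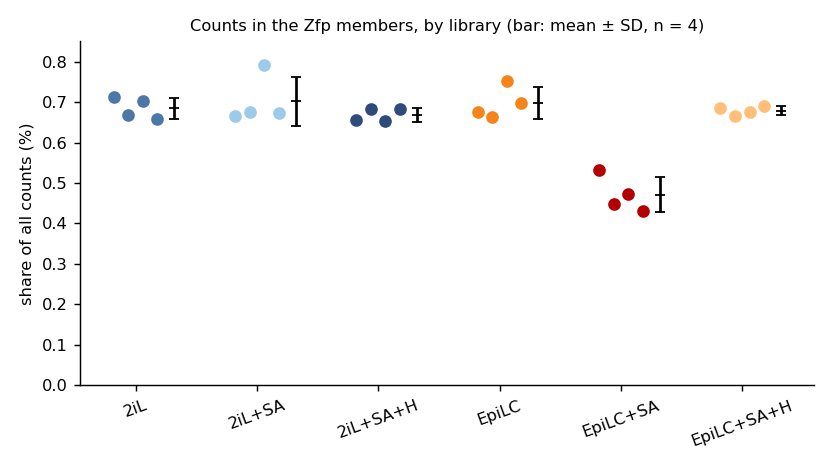
Share of all counts that fall in the 300 members (%), with 1 point per library and the mean ± SD of each group of 4 beside it. The EpiLC+SA libraries lie at 0.432 to 0.531% and all others at 0.653 to 0.792%.

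The untreated transition asks which members differ between naive mESCs and EpiLCs. Of the 291 members tested, 29 rose and 24 fell (edgeR quasi-likelihood test, Benjamini-Hochberg adjusted over all genes, threshold 0.05). Over all 16067 genes 15.0% rose and 13.4% fell, and 28.3% were called in either direction, beside 53 of 291 members. The members' median log2 fold change was -0.09. Groups did not overlap in 26 members that were higher and 47 that were lower in EpiLC, beside 13.3% and 16.5% of all genes. Of the 148 tested KRAB members 5 rose and 10 fell, with a median log2 fold change of -0.22, and of the 140 without the box 23 rose and 14 fell, with a median of 0.00.

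Among the genes that rose were factors of transcription and lineage without a KRAB box. Zfp423, a partner of SMAD and EBF proteins in BMP signalling, was at 1.37, 0.787, 2.21 and 2.59 CPM in the 2iL libraries and at 17.01, 17.7, 17.3 and 25.8 CPM in EpiLC. The groups were far apart, at a log2 fold change of 3.52 (SE 0.38, edgeR adjusted p = 1.07e-07). Zfp462, which in mouse embryonic stem cells guards cell identity through heterochromatin, rose from 44.7, 33.5, 57.1 and 57.2 CPM to 132, 115, 150 and 148 CPM, without overlap (log2 fold change 1.54, SE 0.22, edgeR adjusted p = 6.92e-06). Zfp618, which binds 5-hydroxymethylcytosine, was at 0.412, 1.05, 0.473 and 0.162 CPM in 2iL and at 8.83, 7.66, 3.12 and 17.2 CPM in EpiLC. The lowest EpiLC library, shallow replicate 3, was still above every 2iL library (log2 fold change 4.08, SE 0.59, edgeR adjusted p = 8.27e-06).

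Zfp608 and Zfp467 went from near 0 to a clear level. Zfp608, known in mouse as a regulator of thymocytes, had 4 counts in all in 2iL, from replicate 1 (0.550 CPM), and was at 18.1, 67.9, 13.9 and 14.5 CPM in EpiLC. Its log2 fold change of 7.47 (SE 1.08, edgeR adjusted p = 1.21e-05) rests on those few counts, and was 10.48 without 2iL replicate 1 and 6.59 without EpiLC replicate 2. Zfp467, which in mouse marrow promotes bone cells or fat cells, had 0.00, 0.656, 0.00 and 0.972 CPM in 2iL and 17.3, 24.5, 7.98 and 15.9 CPM in EpiLC (log2 fold change 5.31, SE 0.72, edgeR adjusted p = 3.58e-06, and 6.07 without 2iL replicate 4). In both genes every EpiLC library was above every naive one.

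Zfp532, a member of a chromatin complex with Zfp592 and Zfp687, rose at a higher level, from 29.6, 26.4, 31.7 and 33.5 CPM in 2iL to 171, 98.5, 104 and 193 CPM in EpiLC. The 2 groups did not overlap (log2 fold change 2.25, SE 0.27, edgeR adjusted p = 6.92e-07), whereas its partners did not pass, with log2 fold changes of -0.14 (SE 0.17, edgeR adjusted p = 0.591) for Zfp592 and 0.20 (SE 0.16, edgeR adjusted p = 0.370) for Zfp687. Zfp948 is a KRAB member that rose, from 11.4, 5.90, 6.31 and 4.05 CPM to 28.2, 20.4, 20.5 and 26.0 CPM (log2 fold change 1.81, SE 0.30, edgeR adjusted p = 5.01e-05). It lies in the chromosome 17 cluster beside Zfp820, which fell.

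Members that fell include genes of the naive state. Zfp296, a partner of Klf4 in mouse stem cells, went from 74.5, 55.2, 60.2 and 69.2 CPM in 2iL to 22.3, 8.94, 22.9 and 22.2 CPM in EpiLC, with all EpiLC libraries below all naive ones (log2 fold change -1.73, SE 0.29, edgeR adjusted p = 6.85e-05). Zfp703, a corepressor without a standard C2H2 finger, went from 4.26, 9.71, 5.68 and 8.26 CPM to 0.482, 0.213, 0.00 and 2.55 CPM. Its log2 fold change was -2.81 (SE 0.59, edgeR adjusted p = 0.000673), or -4.50 without EpiLC replicate 4, which held the highest EpiLC value.

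The marker gene Zfp628, a regulator of male germ cell development in mouse, fell from 13.9, 13.9, 12.0 and 17.5 CPM in 2iL to 3.85, 5.75, 5.90 and 3.82 CPM in EpiLC. No libraries overlapped (log2 fold change -1.56, SE 0.33, edgeR adjusted p = 0.000782). The other markers did not pass the test, with log2 fold changes of 0.12 (SE 0.45, edgeR adjusted p = 0.875) for Zfp787 and -0.23 (SE 0.43, edgeR adjusted p = 0.727) for Zfp768. Zfp276, Zfp408, Zfp46 and Zfp771 also fell, by 1.76, 1.72, 1.56 and 1.32 on the log2 scale, each without overlap.

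By role, each count of EpiLC against 2iL stands beside the 15.0% of all genes that rose and the 13.4% that fell. In the list of imprint and retroelement factors none of the 5 tested members passed. Without the 3 shallow libraries Zfp57 and Zfp568 passed. Zfp57, which holds DNA methylation at imprints, was at 41.5, 36.7, 40.1 and 50.4 CPM in 2iL and 14.6, 8.09, 40.6 and 27.0 CPM in EpiLC. The groups overlapped through EpiLC replicate 3, and the log2 fold change of -0.87 (SE 0.41, edgeR adjusted p = 0.116) became -1.33 (edgeR adjusted p = 0.0186) without that shallow library. For Zfp568 the log2 fold change of -0.34 (edgeR adjusted p = 0.241) became -0.52 (edgeR adjusted p = 0.0436) without the 3 shallow libraries. Zfp445, the partner of Zfp57 at imprints, did not pass (log2 fold change 0.65, SE 0.40, edgeR adjusted p = 0.239).

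Of the 11 pluripotency and lineage genes 2 rose (Zfp423 and Zfp462) and 2 fell (Zfp296 and Zfp703), which is close to the share of all genes. Zfp207 had a log2 fold change of -0.31 (edgeR adjusted p = 0.112), or -0.33 (edgeR adjusted p = 0.0387) without the 3 shallow libraries. Of the 8 RNA and ribosome genes 2 rose: Zfp346, a binder of double-stranded RNA (log2 fold change 0.78, SE 0.21, edgeR adjusted p = 0.00621), and Zfp326, a splicing and elongation factor. Zfp326 was at 61.7, 65.6, 61.7 and 54.1 CPM in 2iL and at 104, 76.6, 81.8 and 100 CPM in EpiLC. The groups did not overlap (log2 fold change 0.61, SE 0.20, edgeR adjusted p = 0.0210), but the call was lost without 2iL replicate 3 (edgeR adjusted p = 0.0506), 2iL replicate 4 (0.0580) or EpiLC replicate 1 (0.0587). Zfp598, a ubiquitin ligase of stalled ribosomes, was at 77.3, 73.3, 76.8 and 56.9 CPM in 2iL and at 52.6, 38.1, 12.1 and 56.6 CPM in EpiLC, without overlap. It did not pass (log2 fold change -0.80, edgeR adjusted p = 0.0602), but was called lower by DESeq2 (adjusted p = 0.0445) and by edgeR without the 3 shallow libraries (-0.54, adjusted p = 0.0203), without EpiLC replicate 1 (-0.96, adjusted p = 0.0443) or without EpiLC replicate 4 (-0.99, adjusted p = 0.0390).

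Of the 11 chromatin and ubiquitin or SUMO factors 3 rose and none fell, beside 15.0% and 13.4% of all genes, namely Zfp532, Zfp451, a SUMO ligase (log2 fold change 0.59, SE 0.18, edgeR adjusted p = 0.0135), and Zfp644, a partner of the H3K9 methyltransferases (log2 fold change 0.64, SE 0.18, edgeR adjusted p = 0.0100). Zfp91 did not pass, at 190, 190, 190 and 179 CPM in 2iL and 156, 149, 79.1 and 162 CPM in EpiLC. All EpiLC libraries lay below the naive ones, with shallow replicate 3 far lower than the rest (log2 fold change -0.43, SE 0.19, edgeR adjusted p = 0.0862).

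Among the members of highest level, Zfp292 fell from 426, 348, 423 and 368 CPM to 293, 236, 298 and 253 CPM. Groups did not overlap (log2 fold change -0.49, SE 0.16, edgeR adjusted p = 0.0260), but the adjusted p rose to 0.0676 without 2iL replicate 1, 0.0620 without 2iL replicate 3, 0.0782 without EpiLC replicate 2 and 0.0751 without EpiLC replicate 4. Zfp706 was at 243, 264, 239 and 247 CPM in 2iL and at 154, 163, 362 and 129 CPM in EpiLC, where the shallow replicate 3 alone was above the naive libraries. Its log2 fold change was -0.23 (SE 0.28, edgeR adjusted p = 0.575), and -0.74 (edgeR adjusted p = 0.0179) without that library. In EpiLC+SA+H against 2iL+SA+H its log2 fold change was -0.51 (edgeR adjusted p = 0.225), or -0.53 (edgeR adjusted p = 0.00321) without the 3 shallow libraries. Zfp106 was high in the same library, at 1021 CPM beside 555, 664 and 556 CPM, and did not pass (log2 fold change 0.54, SE 0.26, edgeR adjusted p = 0.126).

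The transition could be measured again in libraries that share none with the first comparison, EpiLC+SA+H against 2iL+SA+H, where both sides had SA and hemin. The naive and primed marker sums of EpiLC+SA+H reached outside the ranges of EpiLC, so this was not an exact repeat. Here 21 members rose and 24 fell, beside 10.2% and 10.5% of all genes, and the median log2 fold change was -0.10. All 53 members called in the untreated transition had the same sign here, and 29 were called in both, which is 54.7% of the 53 and 64.4% of the 45 called here: 17 higher, 12 lower and none in opposite directions. Across the 291 members the log2 fold changes had a Pearson r of 0.755 and a Spearman rho of 0.596, and 206 (70.8%) had the same sign. Over all genes r was 0.807 and 77.0% had the same sign. Genes are not independent replicates, and these values describe 16 libraries.

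**Figure D2:**
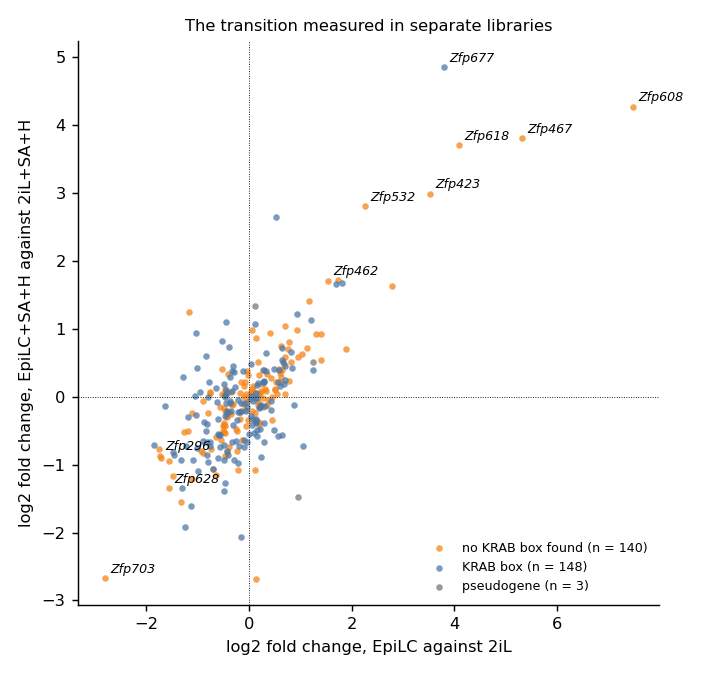
Log2 fold change of each of the 291 tested members in EpiLC against 2iL (horizontal) and in EpiLC+SA+H against 2iL+SA+H (vertical), 1 point per gene, coloured by KRAB box. Zfp608, Zfp467, Zfp618 and Zfp423 lie far up on both axes, and Zfp703 lies low on both.

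The named genes of the untreated transition had these values with SA and hemin. Zfp423 rose from 0.843, 2.14, 2.08 and 3.02 CPM in 2iL+SA+H to 9.85, 12.1, 22.3 and 21.03 CPM in EpiLC+SA+H (log2 fold change 2.99, SE 0.37, edgeR adjusted p = 1.56e-06). Zfp462 rose from 58.5, 37.5, 31.6 and 36.6 CPM to 116, 137, 153 and 144 CPM (log2 fold change 1.71, SE 0.22, edgeR adjusted p = 2.67e-06). Every library of EpiLC+SA+H was above those of 2iL+SA+H in both genes.

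Zfp532 rose by 2.80 (SE 0.28, edgeR adjusted p = 6.27e-08) and Zfp618 by 3.70 (SE 0.61, edgeR adjusted p = 6.08e-05) on the log2 scale. Zfp608 was at 21.6, 12.4, 2.60 and 3.78 CPM in EpiLC+SA+H and at or below 0.788 CPM in 2iL+SA+H, with a log2 fold change of 4.27 (SE 0.95, edgeR adjusted p = 0.00188), or 3.62 without EpiLC+SA+H replicate 1. For Zfp467 it was 3.80 (SE 0.65, edgeR adjusted p = 0.000113), or 4.39 without 2iL+SA+H replicate 4. Zfp819, a KRAB member, rose by 2.64 (SE 0.75, edgeR adjusted p = 0.0124), or by 4.58 without 2iL+SA+H replicate 1.

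Zfp628 fell again, from 12.3, 16.7, 10.4 and 12.3 CPM to 7.50, 4.77, 6.01 and 3.19 CPM, without overlap (log2 fold change -1.35, SE 0.33, edgeR adjusted p = 0.00413). Zfp703 fell by 2.68 on the log2 scale (SE 0.57, edgeR adjusted p = 0.00103), or by 3.75 without EpiLC+SA+H replicate 4. Zfp771 fell from 44.0, 40.5, 26.3 and 57.7 CPM to 19.2, 15.3, 9.26 and 15.7 CPM (log2 fold change -1.56, SE 0.28, edgeR adjusted p = 0.000164), and the groups did not overlap. Zfp820, a KRAB member, fell by 1.34 (SE 0.21, edgeR adjusted p = 4.13e-05).

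Zfp809 and Zfp281 passed here and not in the untreated transition, and whether the arms differ was not tested. Zfp809, which recruits Trim28 to the primer binding site of murine leukemia virus, was at 22.9, 32.7, 21.1 and 18.7 CPM in 2iL+SA+H and at 7.50, 10.2, 6.50 and 12.9 CPM in EpiLC+SA+H, so all libraries of the second group were lower (log2 fold change -1.39, SE 0.38, edgeR adjusted p = 0.00895). Zfp281, a factor of the primed state, was higher (log2 fold change 0.94, SE 0.28, edgeR adjusted p = 0.0170) with overlapping groups, and lost its call without 2iL+SA+H replicate 4 (edgeR adjusted p = 0.0712) or EpiLC+SA+H replicate 4 (0.101). Zfp296, which also fell in the untreated transition, was lower by a log2 fold change of -0.87 (SE 0.29, edgeR adjusted p = 0.0318), and its adjusted p was 0.0606 without the 3 shallow libraries. Leaving out 1 library took that call away for 2iL+SA+H replicates 1 and 2 (adjusted p 0.0797 and 0.0700) and EpiLC+SA+H replicates 1, 2 and 4 (0.103, 0.0633 and 0.0808).

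Zfp787 was at 9.95, 13.95, 9.70 and 11.7 CPM in 2iL+SA+H and at 7.04, 1.53, 5.69 and 8.15 CPM in EpiLC+SA+H. These groups did not overlap, yet the log2 fold change of -1.07 (SE 0.45) did not pass (edgeR adjusted p = 0.0980), and was -1.20 (edgeR adjusted p = 0.0334) without the 3 shallow libraries. For Zfp768 the log2 fold change of -0.81 (SE 0.44, edgeR adjusted p = 0.218) became -1.29 (edgeR adjusted p = 0.0342) without EpiLC+SA+H replicate 1, its highest library.

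In naive cells, SA for 48 h was tested with and without hemin. No member passed in 2iL+SA against 2iL by edgeR, where 0.0249% of all genes rose and 0.0249% fell (0.0498% in either direction). Of the 291 members, 20 (6.87%) had an unadjusted p under 0.05, beside 12.7% of all genes, and DESeq2 called 1 higher and 1 lower. These were named after their values were seen. Zfp560, a KRAB member, was at 1.51, 3.15, 2.37 and 2.75 CPM in 2iL and at 3.57, 6.84, 5.92 and 7.90 CPM in 2iL+SA, without overlap (log2 fold change 1.27, SE 0.38, edgeR adjusted p = 0.151, DESeq2 adjusted p = 0.0395).

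Zfp41, the gene DESeq2 called lower, was at 28.6, 27.5, 21.6 and 27.2 CPM in 2iL, at 15.0, 12.0, 16.1 and 15.8 CPM in 2iL+SA and at 26.1, 30.8, 17.5 and 32.8 CPM in 2iL+SA+H. All 2iL+SA libraries were lower than all other naive libraries (2iL+SA against 2iL: log2 fold change -0.87, SE 0.25, edgeR adjusted p = 0.139, DESeq2 adjusted p = 0.0416). The groups did not overlap for 8 members higher and 12 lower with SA, beside 5.91% and 5.89% of all genes.

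Hemin in naive cells gave no called member either. In 2iL+SA+H against 2iL 10 members (3.44%) had an unadjusted p under 0.05, beside 4.88% of all genes, none passed by edgeR or by DESeq2, and 0.00622% of all genes were called. Groups did not overlap for 7 members higher and 12 lower, beside 3.26% and 2.51% of all genes. In 2iL+SA+H against 2iL+SA 8 members (2.75%) had an unadjusted p under 0.05, beside 4.59% of all genes, none passed with either tool, and 0% of all genes were called by edgeR. Here 8 members were higher and 2 lower without overlap, beside 2.21% and 1.38% of all genes. The marker genes did not pass in 2iL+SA against 2iL, with log2 fold changes of 0.00 (SE 0.45) for Zfp787, 0.11 (SE 0.43) for Zfp768 and -0.42 (SE 0.31) for Zfp628. With standard errors of 0.31 to 0.45, small changes in these genes were not detectable.

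EpiLC+SA+H against EpiLC asks what remained of the difference when hemin was given with SA. The naive and primed marker sums of these groups overlapped only in part, and a gene that did not pass was not shown to be equal. No member passed by edgeR, beside 0.0622% of all genes (0.0436% higher and 0.0187% lower), and 3 members were higher and 5 lower without overlap, beside 2.15% and 1.48% of all genes. An unadjusted p under 0.05 was found for 27 members (9.28%) and for 10.4% of all genes. DESeq2 called 1 lower, Zfp687, of the Zfp532 complex, which was at 48.8, 50.2, 36.1 and 42.5 CPM in EpiLC and at 30.5, 30.2, 32.7 and 32.4 CPM in EpiLC+SA+H. The groups did not overlap (log2 fold change -0.59, SE 0.16, edgeR adjusted p = 0.170, DESeq2 adjusted p = 0.0131).

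The remaining comparisons contain the EpiLC+SA libraries that the choice of the family used, and nothing is read from their counts. With SA during the transition, 10 members were called higher and 119 lower than in EpiLC, at a median log2 fold change of -0.77, where 12.1% of all genes were called higher, 15.8% lower and 27.9% in either direction, and the median over all genes was 0.00. Groups did not overlap for 8 members higher and 97 lower, beside 10.1% and 14.2% of all genes. With hemin added (EpiLC+SA+H against EpiLC+SA) 95 were called higher and 5 lower, at a median of 0.71, beside 10.5% and 5.95% of all genes, and 117 were higher and 2 lower without overlap, beside 14.3% and 5.30%. In EpiLC+SA against 2iL+SA 17 were called higher and 133 lower, at a median of -0.78, beside 16.8% and 21.0% of all genes, or 37.8% in either direction. The SA effect in the transition minus that in naive cells was called higher for 3 members and lower for 79, beside 5.27% and 9.07% of all genes. The 119 members called lower with SA had a median of -1.53 with SA and of 1.29 when hemin was added. Both comparisons contain the EpiLC+SA libraries in which these members were picked as low, so both values are fixed in part by that choice. Their median was -0.24 in EpiLC+SA+H against EpiLC. That comparison contains the EpiLC libraries used in the same choice, so this value is also fixed in part. In 2iL+SA against 2iL, which holds neither group, the median was -0.01.

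**Figure D3:**
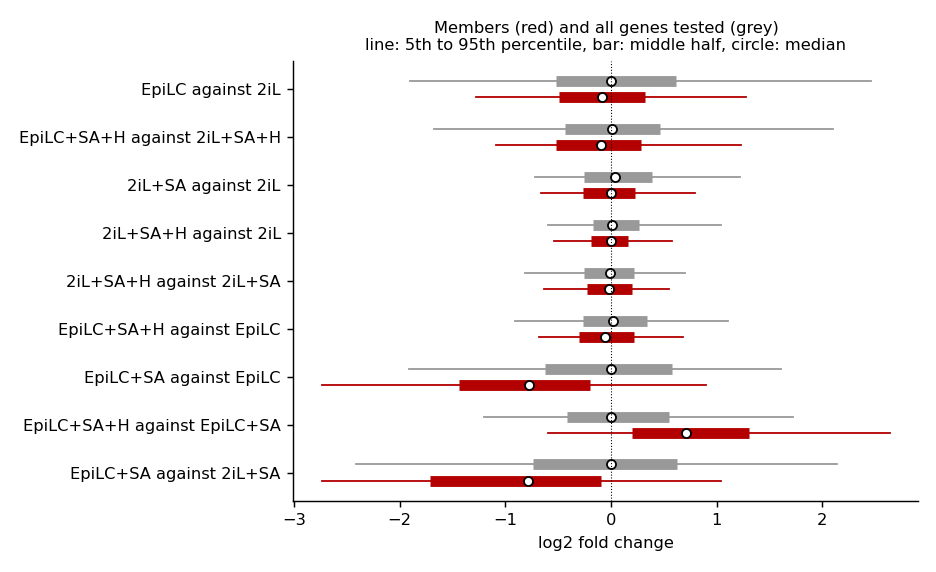
Log2 fold changes of the 291 tested members (red) and of all 16067 genes (grey) in 9 comparisons: the thin line spans the 5th to 95th percentile, the bar the middle of the distribution between the quartiles, and the circle is the median. The medians of the members lie near 0 except where EpiLC+SA is compared, at -0.77, 0.71 and -0.78.

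Zfp787 was at 3.05, 5.96, 15.3 and 7.39 CPM in EpiLC, at 0.165, 0.195, 0.738 and 0.00 CPM in EpiLC+SA and at 7.04, 1.53, 5.69 and 8.15 CPM in EpiLC+SA+H. Only 6 counts lay in the 4 EpiLC+SA libraries, and every other library was above them. The log2 fold change with SA was -4.71 (SE 0.66), or -5.84 without EpiLC+SA replicate 3, and hemin gave 4.11 (SE 0.67), or 5.27 without that replicate.

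Zfp768, a protein of 10 C2H2 fingers, was at 5.46, 7.87, 9.36 and 7.27 CPM in EpiLC, at 1.32, 0.00, 0.554 and 0.158 CPM in EpiLC+SA (12 counts in all) and at 13.6, 2.73, 6.17 and 5.43 CPM in EpiLC+SA+H. The EpiLC+SA libraries were again below all others, at a log2 fold change of -3.74 (SE 0.58), or -4.76 without EpiLC+SA replicate 1. Zfp628 was at 0.330, 0.585, 0.185 and 0.00 CPM in EpiLC+SA (6 counts in all), below all other libraries (log2 fold change -4.01, SE 0.50, or -4.61 without EpiLC+SA replicate 2). At these counts, the size of each difference is uncertain.

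**Figure D4:**
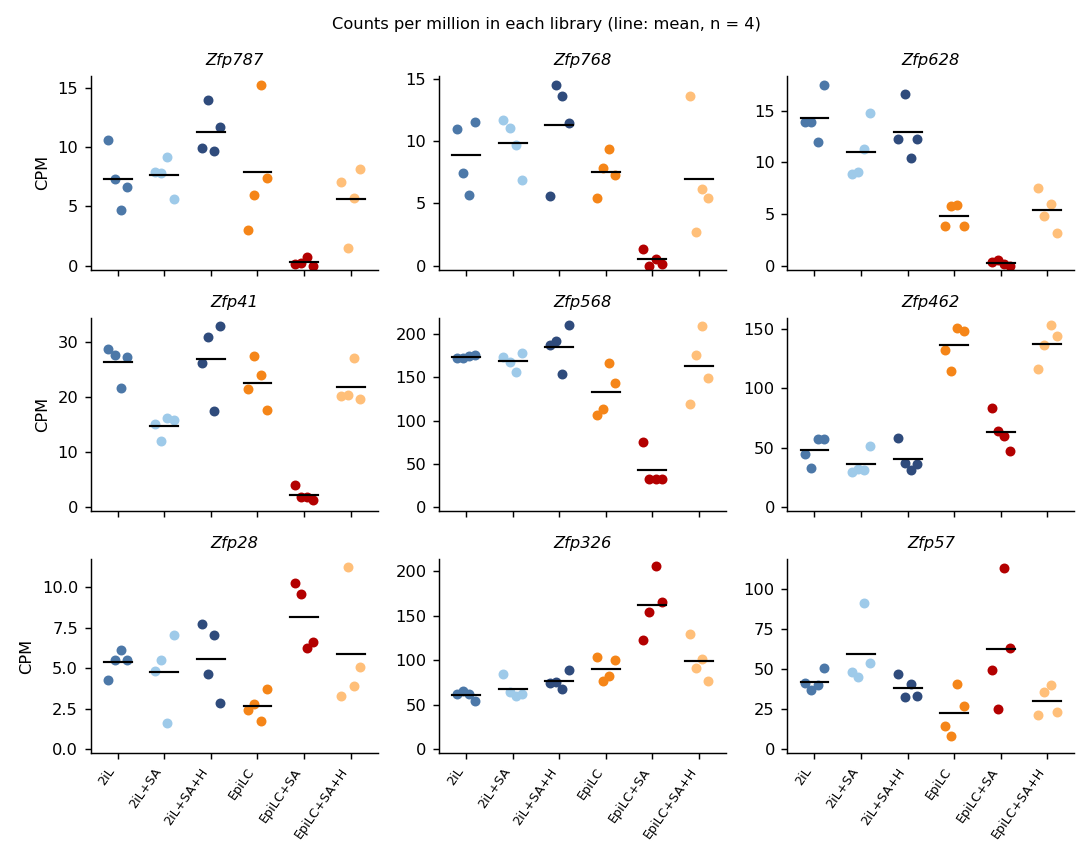
CPM of 9 members in each of the 24 libraries (points) with the mean of each group of 4 (line); the vertical scale differs by panel. Zfp787, Zfp768, Zfp628, Zfp41 and Zfp568 are lowest in EpiLC+SA, Zfp462 is higher in EpiLC and EpiLC+SA+H than in the naive groups, and Zfp28, Zfp326 and Zfp57 have their highest mean in EpiLC+SA.

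Other members followed at higher levels. Zfp41 was at 21.3, 27.5, 23.9 and 17.6 CPM in EpiLC, at 3.96, 1.95, 1.85 and 1.26 CPM in EpiLC+SA and at 20.2, 20.3, 27.0 and 19.6 CPM in EpiLC+SA+H. EpiLC+SA stood alone at the bottom, with a log2 fold change of -3.26 (SE 0.29) with SA and 3.11 (SE 0.29) with hemin. Zfp568 was at 107, 114, 167 and 144 CPM in EpiLC, at 75.8, 32.2, 33.2 and 32.9 CPM in EpiLC+SA and at 120, 176, 209 and 149 CPM in EpiLC+SA+H. Here EpiLC+SA replicate 1 was the closest to the untreated cells without reaching them (log2 fold change -1.57, SE 0.22). Among the members of highest level, Zfp207 (-0.33) and Zfp706 (-0.15) were not called with SA. Without the 3 shallow libraries both were called, Zfp207 at -0.31 and Zfp706 with the opposite sign at 0.37. Zfp207 was also called by DESeq2 (-0.35) and with the length trend removed (-0.48).

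Zfp719, a KRAB member of the chromosome 7 cluster that also holds Zfp819, was at 6.26, 5.75, 7.28 and 4.21 CPM in EpiLC and at 0.495, 0.390, 0.554 and 0.474 CPM in EpiLC+SA (log2 fold change -3.49, SE 0.51). Zfp324 was lower by a log2 fold change of -3.19 (SE 0.43). For genes that rose in the transition, the log2 fold change with SA was -2.79 (SE 0.55) for Zfp618, -1.53 (SE 0.27) for Zfp532, -1.04 (SE 0.22) for Zfp462 and -4.44 (SE 0.85) for Zfp608. For Zfp608 it was -3.57 without EpiLC replicate 2 and -6.81 without EpiLC+SA replicate 2. Zfp423, by contrast, was at 22.0, 9.17, 16.1 and 17.4 CPM in EpiLC+SA, overlapping EpiLC (log2 fold change -0.20, SE 0.32), and Zfp703 was also close to EpiLC (0.08, SE 0.70).

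The 10 members called higher with SA, beside 12.1% of all genes, were Zfp143, Zfp28, Zfp326, Zfp560, Zfp57, Zfp593, Zfp607, Zfp637, Zfp931 and Zfp932. Zfp143 (log2 fold change 0.73) lost this call in 9 settings (0.47 to 0.77), namely with no filter, in a fit of the compared groups alone, without the 3 shallow libraries, and without any 1 of EpiLC replicates 1, 2 and 3 and EpiLC+SA replicates 1, 2 and 4. Zfp593 (0.65) lost it in 5 (0.43 to 0.64), namely without the 3 shallow libraries, in a fit of the compared groups alone, and without EpiLC replicate 3, EpiLC replicate 4 or EpiLC+SA replicate 4. Zfp28, a KRAB gene, was at 2.41, 2.77, 1.73 and 3.70 CPM in EpiLC, at 10.2, 9.56, 6.27 and 6.64 CPM in EpiLC+SA and at 3.28, 11.2, 3.90 and 5.08 CPM in EpiLC+SA+H. Its EpiLC+SA libraries were above all EpiLC libraries (log2 fold change 1.65, SE 0.40), but EpiLC+SA+H replicate 2 was higher than any of them.

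Zfp326 was at 123, 154, 206 and 166 CPM in EpiLC+SA, above the 76.6 to 104 CPM of EpiLC (log2 fold change 0.93, SE 0.20), and at 129, 91.4, 101 and 76.9 CPM in EpiLC+SA+H, whose replicate 1 overlapped. Zfp932, which in mouse represses endogenous retroviruses, was at 10.1, 20.5, 10.3 and 19.8 CPM in EpiLC+SA and at 8.35, 9.79, 5.90 and 5.86 CPM in EpiLC (log2 fold change 1.10, SE 0.30). Zfp57 was at 49.5, 25.2, 113 and 62.9 CPM in EpiLC+SA and overlapped EpiLC. Its log2 fold change of 1.57 (SE 0.41) was 1.06 without EpiLC+SA replicate 3, where the call was lost.

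With hemin, the 5 members called lower, beside 5.95% of all genes, were Zfp143, Zfp326, Zfp57, Zfp607 and Zfp956. That number was 2 without EpiLC+SA replicate 3, without EpiLC+SA replicate 4 or without EpiLC+SA+H replicate 1, and 3 without EpiLC+SA+H replicate 2. Zfp143 (-0.80) lost this call in 8 settings (-0.84 to -0.64) and Zfp57 (-1.25) in 8 (-1.34 to -0.71). Zfp36, the mRNA decay factor tristetraprolin, which binds RNA with fingers of another type, was at 2.48, 1.95, 0.554 and 2.37 CPM in EpiLC+SA and at 6.10, 6.65, 2.76 and 8.27 CPM in EpiLC+SA+H, without overlap (log2 fold change 1.51, SE 0.52). That call was lost with no filter (1.52). It was also lost without any 1 of 7 libraries, namely each EpiLC+SA replicate and EpiLC+SA+H replicates 1, 2 and 4, where its log2 fold change was 1.27 to 1.71.

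By structure, members with and without a KRAB box had similar medians with SA. Of the 148 KRAB members 6 were called higher and 58 lower, at a median log2 fold change of -0.79, and of the 140 others 4 and 59, at a median of -0.76. Beside these stand 12.1% of all genes called higher and 15.8% called lower. The comparison holds the EpiLC+SA libraries that the choice of the family used. Members in clusters had a median of -0.81 (130 genes, 54 lower) and members outside of -0.77 (161 genes, 65 lower), beside 15.8% of all genes lower. Across members, the log2 fold change with SA had a Spearman rho of -0.18 with transcript length (n = 291), of -0.14 with the number of fingers (n = 288), of 0.12 with the mean CPM (n = 291) and of -0.04 with transcript GC (n = 291). These are descriptions over genes of the same libraries.

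Medians with SA are given by cluster, and whether clusters differ was not tested. The 10 members in the chromosome 7 cluster around Zfp768 (127233061 to 127885996, GRCm38) had the lowest median of the 14 clusters, -1.84. This cluster holds a marker gene, and the comparison holds the libraries used to pick the family, so its median is fixed in part by that choice. Of its 10 members 7 were called lower and none higher, beside 15.8% and 12.1% of all genes and 119 and 10 of the 291 members. With hemin 6 were called higher, at a median of 1.56, beside 10.5% of all genes. The hemin comparison shares the EpiLC+SA libraries that singled out this cluster, so its values are fixed in part by that choice. In that cluster Zfp668 (-2.78), Zfp689 (-2.35), Zfp629 (-2.11), Zfp646 (-1.88), Zfp553 (-1.80) and Zfp771 (-1.44) were lower with SA beside Zfp768, whereas Zfp688 had a log2 fold change of 0.85. In the untreated transition, which shares the EpiLC libraries with the comparison that singled out this cluster, 3 of its 10 members fell, Zfp553, Zfp764 and Zfp771, and none rose, beside 13.4% and 15.0% of all genes. The chromosome 7 cluster of 13 genes that holds Zfp568 had the highest median, -0.24, and the cluster of 19 tested genes on chromosome 17 had 8 called lower, at -0.88.

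**Figure D5:**
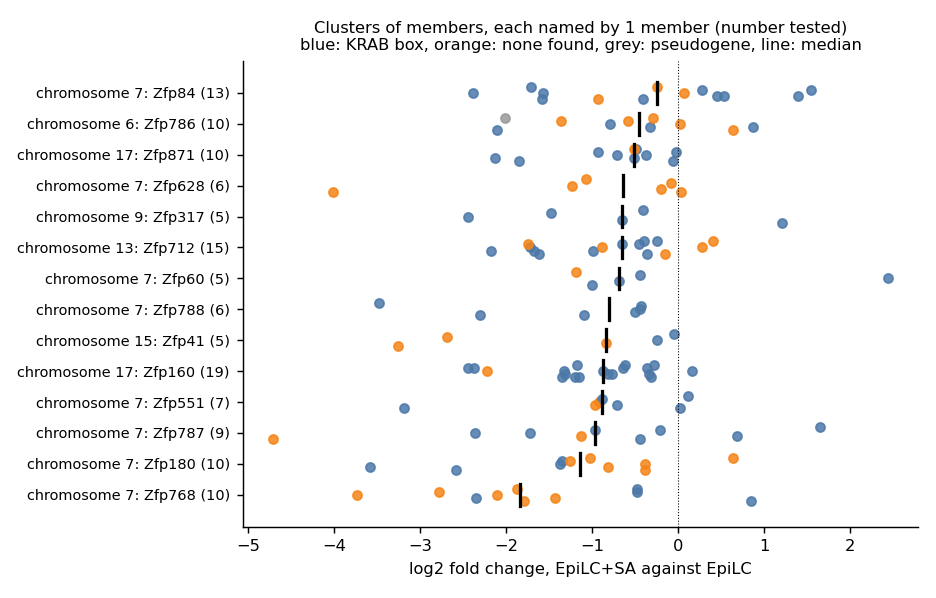
Log2 fold change of EpiLC+SA against EpiLC for each tested member of the 14 clusters, 1 point per gene, with the cluster median as a line and each row named by its chromosome and 1 member. The cluster of Zfp768 lies lowest, at a median of -1.84, and the cluster of Zfp84 and Zfp568 highest, at -0.24.

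Neighbouring genes could have opposite values. The cluster of 9 genes that holds Zfp787 (-4.71) also holds Zfp28 (1.65), Zfp418 (-2.36) and Zfp772 (-0.22). In the chromosome 7 cluster of Zfp628 (-4.01) its 5 neighbours lay between -1.23 and 0.03, with Zfp524 called lower.

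By role, the list of chromatin and ubiquitin or SUMO factors had 6 of 11 called lower with SA and none higher (Zfp148, Zfp532, Zfp592, Zfp644, Zfp687 and Zfp827). Beside these stand 15.8% and 12.1% of all genes, and 119 and 10 of the 291 members. Zfp592 (-0.54) lost the call in 6 settings (-0.56 to -0.32), namely with no filter, with the length trend removed, in a fit of the compared groups alone, and without EpiLC replicate 4, EpiLC+SA replicate 1 or EpiLC+SA replicate 2. Zfp148 (-0.62) lost it in 3 (-0.65 to -0.37), namely with the length trend removed, in a fit of the compared groups alone and without EpiLC+SA replicate 2. The RNA and ribosome list and the pluripotency and lineage list each held calls in both directions. Zfp326, Zfp593 and Zfp143 were all of those called higher there. Zfp462 was among those called lower, and both lists held other lower calls that are not named here. The imprint and retroelement list was also split, with Zfp57 and Zfp932 called higher and Zfp568 and Zfp809 lower. Zfp57 lost its call without EpiLC+SA replicate 3 (1.06), and Zfp809 (-1.21) in 5 settings (-1.22 to -0.95), namely in a fit of the compared groups alone and without EpiLC replicate 2 or EpiLC+SA replicate 2, 3 or 4. Other zinc finger families were chosen by symbol. In the same comparison the medians were -0.49 for 39 Zbtb genes with 13 lower and -0.60 for 22 Zscan and Zkscan genes with 8 lower. They were -0.23 for 16 Klf genes with 4 lower, -0.21 for 18 Zc3h genes with 2 lower, and -0.33 for 20 Zfp genes with a letter suffix with 3 lower. Beside these stand a median of -0.77 with 119 lower for the 291 members, and 15.8% lower for all genes. The members were picked for loadings on the axis of EpiLC+SA, so a larger shift in them is fixed in part by that choice. Whether the families differ was not tested.

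Genes of the silencing machinery that KRAB proteins recruit, with other factors of heterochromatin and DNA methylation, were set beside the family. Of 20 such partners 3 rose and 1 fell in EpiLC against 2iL, beside 15.0% and 13.4% of all genes. Cbx1, a heterochromatin protein, rose by 0.96 (SE 0.22, edgeR adjusted p = 0.00170), Pphln1 and Fam208a, subunits of the HUSH silencing complex, rose by 1.30 (edgeR adjusted p = 8.95e-05) and 0.83 (edgeR adjusted p = 0.00185), and Uhrf1, which guides maintenance DNA methylation, fell by 1.04 on the log2 scale (edgeR adjusted p = 0.000434). Trim28 did not pass (log2 fold change -0.23, SE 0.19, edgeR adjusted p = 0.412), nor did Setdb1 (-0.63, SE 0.26, edgeR adjusted p = 0.0667). With SA during the transition Trim28 had a log2 fold change of 0.01 (SE 0.19) and Setdb1 of -0.69 (SE 0.26), neither of them called. There 1 partner was called higher, Uhrf1 (0.75, SE 0.21), and 5 lower, Fam208a (-1.79), Pphln1 (-1.38), Daxx (-0.84), Morc3 (-0.68) and Atf7ip (-0.55), beside 12.1% and 15.8% of all genes, and the median over the 20 was -0.22.

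Promoter windows were found for 246 of the 300 members (305 windows), among 32851 windows of all genes. CCGGAAGT was in 11.1% of the members' windows and in 3.89% of all, GGGCGG in 46.2% and 35.7%, and the palindromic NRF1 site in 3.93% and 0.971%. AAGATGGC, the YY1 site, was in 5.57% and 2.75%, TGACGTCA, the CRE, in 3.93% and 1.79%, and the core of the site bound by ZNF143 in 2.95% and 0.286%. Both strands were searched, and the median GC content was 55.7% in the members' windows and 52.7% in all. Similar promoters of copied genes are counted separately, and a match says nothing about binding in these cells.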

How the data were processed

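RNA was measured in 24 libraries by QuantSeq 3' mRNA-Seq, which reads the 3' end of transcripts. Per the study's methods and the submitters' processing notes, the authors checked reads with FastQC 0.11.7, removed adapters, mapped single-end reads to mm10 (GRCm38) with HISAT2, discarded reads mapping to several loci, used SAMtools 1.5 and counted with HTSeq; the annotation and strand setting of counting are not given in the sources used here. The deposited table holds raw counts per gene symbol.

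Counts were tested with edgeR 4.0.16 (R 4.3.3, robust quasi-likelihood, TMM, filterByExpr with a minimum count of 5, common dispersion 0.0882) in 1 model of 6 groups, with Benjamini-Hochberg adjustment over 16067 genes and a threshold of 0.05. DESeq2 1.42.0, other size factors, no filter, the compared groups alone, a replicate block, removal of a transcript length trend, removal of the 3 shallowest libraries and leaving out each library were the alternatives. The fits were tested on simulated data. Python 3.11.15 was used for annotation and figures.

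Groups came from the sample labels. Nothing says that the libraries of a group came from separate cultures, so p-values measure the spread between libraries, which may be technical. The closest pair of libraries of a group differed by more than counting noise (chi-square per degree of freedom 6.77). The members, role lists, partners and families were chosen with earlier results of these data known. Genes named come from the 3 markers and the 6 of highest mean CPM. Added were up to 6 per direction and comparison with the largest change among those called, without overlap and at 5 CPM or more. From each role list came up to 4 with the smallest p in EpiLC against 2iL, and list members called elsewhere. Not every gene that meets these rules is named in the text, and some list members called with SA are left out. Others were named after their values were seen. Fingers and KRAB boxes were found in translations of GENCODE M21 transcripts, with 1 mismatch allowed in 8 scored KRAB positions, or 158 members with a box when 2 were allowed. Promoters came from RefSeq.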

Additional observations from a re-analysis of the deposited data

Results flagged for a closer look

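In 20 of 198 groups of 4 libraries checked, 1 library stood apart from the other 3 by Dixon's criterion; chance alone gives about 1 in 20. Of these, 5 fell to 2iL+SA replicate 3 and 3 to EpiLC replicate 3, which are both shallow. In 2iL+SA replicate 3 the members' share of counts was 0.792%, Zfp106 was at 899 CPM, Zfp706 at 464 CPM, Zfp276 at 0.538 CPM and Zfp46 at 3.23 CPM. In EpiLC replicate 3 Zfp706 was at 362 CPM, Zfp91 at 79.1 CPM and Zfp36 at 1.04 CPM. Zfp608 stood apart in 2iL replicate 1 (0.550 CPM), EpiLC replicate 2 (67.9 CPM) and EpiLC+SA replicate 2 (4.49 CPM), and Zfp91 in 2iL replicate 4 (179 CPM) and EpiLC+SA replicate 3 (195 CPM). Zfp292 was high in 2iL+SA+H replicate 3 (341 CPM), Zfp568 in EpiLC+SA replicate 1 (75.8 CPM), Zfp423 in EpiLC replicate 4 (25.8 CPM), Zfp326 in 2iL+SA replicate 1 (84.0 CPM), Zfp41 in EpiLC+SA+H replicate 3 (27.0 CPM) and Zfp462 in 2iL+SA replicate 4 (51.5 CPM), and Zfp296 was low in EpiLC replicate 2 (8.94 CPM).

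The log2 fold change with SA differed between the transition and naive cells for 24 of the 61 tested members named in the text, and because the choice of the family used the EpiLC+SA libraries these differences are given as values only, transition minus naive. Lower in the transition were Zfp608 (-6.18), Zfp787 (-4.71), Zfp768 (-3.85), Zfp719 (-3.78), Zfp628 (-3.59), Zfp324 (-3.05), Zfp618 (-3.001), Zfp629 (-2.42), Zfp41 (-2.39), Zfp668 (-2.16), Zfp36 (-2.08), Zfp46 (-2.04), Zfp646 (-1.77), Zfp553 (-1.76), Zfp827 (-1.67), Zfp84 (-1.56), Zfp568 (-1.50), Zfp771 (-1.31), Zfp687 (-0.93), Zfp644 (-0.84) and Zfp148 (-0.80). Higher were Zfp607 (2.86), Zfp28 (1.78) and Zfp593 (1.31). Over all members 3 were called higher and 79 lower in this difference, beside 5.27% and 9.07% of all genes.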

How the results depend on the processing

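Of 2205 values of 147 gene results under the alternatives, 2045 kept their direction and side of the threshold. Of the rest, 124 lost a call, 19 gained one, 17 without a test moved by more than the spread, and no call reversed. Zfp706 in EpiLC+SA against EpiLC was not called at -0.15. Without the 3 shallow libraries it was called with the opposite sign, at 0.37. DESeq2 called 1 member higher and 1 lower in 2iL+SA against 2iL, and 1 lower when EpiLC+SA+H was set against EpiLC, where edgeR called none; in the latter 1 was also called lower without the 3 shallow libraries. With hemin added to SA in the transition, the members called lower numbered 5, but 2 with no filter, 8 without the shallow libraries, 9 with DESeq2 and 2 to 5 with 1 library left out. Members whose SA effect was higher in the transition than in naive cells numbered 3, and 6 without the shallow libraries. The causes were not tested. With 1 library left out, EpiLC against 2iL gave 23 to 28 members higher and 18 to 28 lower, and EpiLC+SA against EpiLC 7 to 10 higher and 98 to 122 lower.

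Of 60 pairs of libraries with the same replicate number in other groups, 16 had deviations correlated at over 0.1 (median r 0.016, from -0.333 to 0.534), beside 29 of 180 pairs with other numbers (median r -0.0027). Since not every pair was over 0.1, the numbers were not taken to pair the samples. That rule is strict and cannot exclude a pairing, so results with a replicate block are also given. With the replicate block Zfp57 passed in EpiLC against 2iL (-1.04, edgeR adjusted p = 0.0210). In the same fit Zfp36 lost its call when hemin was added to SA in the transition (1.53). With the replicate block the members called higher and lower were 29 and 23 in EpiLC against 2iL, 21 and 24 in EpiLC+SA+H against 2iL+SA+H, 11 and 116 in EpiLC+SA against EpiLC, 94 and 6 when hemin was added to SA in the transition, 16 and 130 in EpiLC+SA against 2iL+SA, 3 and 75 for the difference of SA effects, and 0 and 0 in the 3 naive comparisons, as was also found when EpiLC+SA+H was set against EpiLC.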

Other observations

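The SA effect in the transition and the SA effect in naive cells share no library, and over the 291 members their log2 fold changes had a Pearson r of 0.056 and a Spearman rho of 0.108, with 52.2% of members of the same sign, beside 50.2% of all genes. Genes are not independent replicates.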
